A study of Mus musculus with 38 samples.

Results

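In all, 9 genes of interferon signaling were followed across the tumor cell populations of the MMTV-PyMT breast cancer model. They are Ifngr1, the ligand-binding chain of the interferon gamma receptor; Jak1 and Jak2, the kinases that this receptor activates; the transcription factors Stat2, Irf9, Irf1, Irf7 and Irf8; and Socs1, an inhibitor of Jak kinases. The 9 members were found among 28786 gene names by the name that the array files give to a probe, with Irf9 listed there under its older name Isgf3g. They were read by 14 of 41174 probes, with 2 probes for each of Irf1, Irf8, Irf9, Jak1 and Jak2 and 1 probe for each of the other 4 genes.

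Interferons signal through receptor chains at the cell surface that carry Jak kinases. Type I interferons lead to a complex of Stat proteins with Irf9 that binds the interferon-stimulated response element (ISRE), whereas interferon gamma leads to a Stat dimer that binds the gamma-activated site (GAS). Irf1 and Irf7 are themselves induced by interferons and extend the response, Irf8 is a factor of macrophages, dendritic cells and B cells that is also induced by interferon gamma, and Socs1 closes a negative feedback loop.

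All tumors grew from hyperplasias of MMTV-PyMT;actin-GFP mice, which express the polyoma middle T oncogene under the MMTV promoter in mammary epithelium and GFP under an actin promoter in all cells. The hyperplasias were transplanted into cleared mammary fat pads of female FVB/n mice, and GFP-positive cells were sorted, so that GFP marks any cell of donor origin and not epithelium alone. In the chemotherapy experiment, transplants were treated at early carcinoma, 2 months after transplantation, with docetaxel, doxorubicin and cyclophosphamide. It comprised 6 untreated tumors, 6 residual tumors taken after the first dose (labeled regressed) and 4 relapsed tumors taken after the fourth dose (labeled resistant). In the progression experiment no tumor was treated, and it comprised 5 adenomas (early outgrowths), 6 carcinomas (late outgrowths), 5 lung metastases and, as a separate group, 6 preparations of disseminated cells. Disseminated cells came from the pooled lungs of several mice with a late outgrowth, and metastases from lungs collected after the primary tumor had been removed.

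Each value is a log2 ratio of sample RNA (Cy5) to a Universal mouse reference RNA (Cy3) on 1 of 38 dual-channel Agilent arrays, without dye swaps. The RNA of the progression experiment was amplified in 2 rounds before labeling, so levels were not set against those of the chemotherapy experiment. Between 48.4 and 78.9% of the spots of an array were well above background, and the main probe of every member was so on all 38 arrays. Arrays of a group correlated with a median r between 0.71 and 0.96, and the lowest value in carcinoma (0.76) was that of replicate 6. In that array the mean log2 ratio of 12 macrophage markers was 4.31, against -0.34 to 0.33 in the other 5 carcinomas, and that of 12 mammary epithelium markers was 2.47, against 3.41 to 3.95. Mammary epithelium markers were well above background on every array for all 12 genes in each chemotherapy group, and in disseminated cells for 10 of 12. There the mean of this list lay between 0.47 and 3.62. The methods call the replicates biological samples, and the sources used here tie none to a single animal, so that p-values measure only the spread between these samples, and the small number of arrays limits the precision.

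The promoters of 4 members hold letters of the binding sites named above, and these stretches are shown because Irf1, Stat2 and Socs1 are among the 5 members that exceeded their untreated level in residual tumors at an unadjusted p below 0.05, and Irf8 had the largest spread among carcinomas. RefSeq promoter windows (build GRCm38.p6, 250 bases before to 50 bases after the transcript start) were matched for all 9 members, 12 windows in total. The GAS was searched as TTCNNNGAA, which reads the same on both strands, and the ISRE core as GAAA, any 2 bases and GAAA on both strands, so that it appears as TTTC, 2 bases and TTTC in reverse. Capitals mark the matches, and each sequence is written 5′ to 3′ along the strand of its gene.
Irf8 promoter (chr8:120736165-120736234, + strand, 2 GAS matches): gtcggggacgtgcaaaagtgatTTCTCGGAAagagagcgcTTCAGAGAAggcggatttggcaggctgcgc
Irf1 promoter (chr11:53769893-53769962, + strand, 1 GAS match): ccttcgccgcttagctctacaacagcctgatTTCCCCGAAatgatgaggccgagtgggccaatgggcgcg
Stat2 promoter (chr10:128270248-128270317, + strand, 1 ISRE match): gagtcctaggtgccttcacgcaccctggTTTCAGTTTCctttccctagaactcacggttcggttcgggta
Socs1 promoter (chr16:10785578-10785647, - strand, 2 overlapping ISRE matches): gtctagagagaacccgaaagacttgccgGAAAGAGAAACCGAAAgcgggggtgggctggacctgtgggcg
The GAS match of Irf1 begins 90 bases before the transcript start, those of Irf8 begin 171 and 153 bases before it, the ISRE match of Stat2 begins 222 bases before it, and those of Socs1 begin 83 and 77 bases before it. Of all 32851 promoter windows, 8.3% hold the GAS letters and 3.44% the ISRE letters. Jak1, Jak2, Irf7, Irf9 and Ifngr1 have neither set of letters in their windows. A match is a description of sequence, and binding was not measured here.

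The first question was how these genes differed between untreated, residual and relapsed tumors. Irf1, Irf7, Stat2, Irf9 and Socs1 had their highest mean in residual tumors and their lowest in relapsed tumors, whereas the means of Ifngr1, Jak1, Jak2 and Irf8 in residual and untreated tumors were within 0.11 of each other on the log2 scale. Between relapsed and residual tumors, 1 of 9 members passed an adjusted p below 0.05 in the limma fit over all genes, namely Irf1, and 0.264% of all genes passed it in the same direction (0.271% in either direction). In that comparison 7 of 9 members were lower at an unadjusted p below 0.05, against 3.28% of all genes. Between residual and untreated tumors no member passed, against 0.198% of all genes, and 5 of 9 members were higher at an unadjusted p below 0.05, against 5.06% of all genes. Between relapsed and untreated tumors no member passed, against 0.00695% of all genes, and 3 of 9 were lower at an unadjusted p below 0.05, against 3.05%. No neighbors in the order of a member's means were separated by the test (adjusted p of at least 0.123 in limma), although Irf1 did not overlap between residual and untreated tumors. Untreated tumors stood first in that order for Irf8 and Jak1, and residual tumors for the other 7 members. In a sorted population, a change in the number of cells of a type and a change in RNA per cell cannot be told apart.

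**Figure D1:**
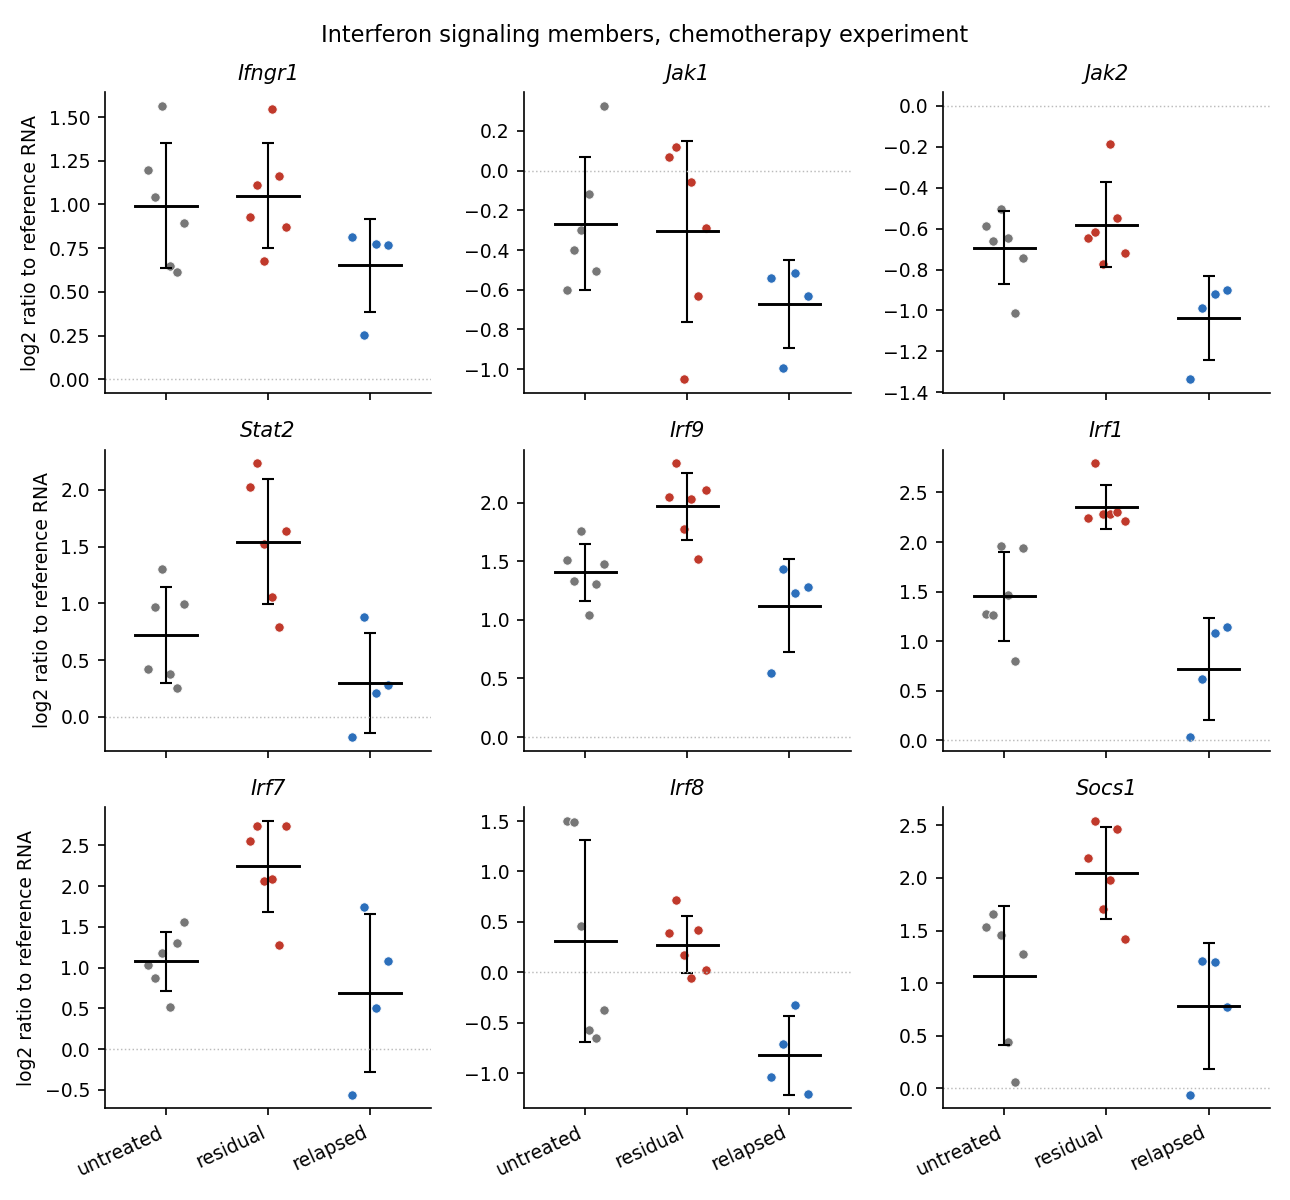
Log2 ratio to reference RNA of each member (vertical axis) in untreated, residual and relapsed tumors (horizontal axis). Each point is 1 tumor, the horizontal line is the group mean and the bar is 1 SD. Irf1 lies between 2.21 and 2.79 in the 6 residual tumors and between 0.034 and 1.14 in the 4 relapsed tumors.

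Irf1, a transcription factor that activates antigen presentation and guanylate-binding protein genes, gave the clearest separation. Its log2 ratio in untreated tumors had a low of 0.80, a median of 1.37 and a high of 1.96, and in residual tumors a low of 2.21, a median of 2.28 and a high of 2.79. The relapsed tumors stood at 0.034, 0.62, 1.08 and 1.14. Every residual tumor was above every untreated tumor and every relapsed tumor. Irf1 fell from residual to relapsed tumors by 1.63 on the log2 scale (SE 0.24, 3.10-fold, adjusted p = 0.00367 in limma). From untreated to residual tumors it was higher by 0.90 (SE 0.21, 1.87-fold), with an adjusted p of 0.123. The second Irf1 probe gave -1.43 (SE 0.22, adjusted p = 0.00739 over all probes) and 0.95 (SE 0.20, adjusted p = 0.0777) for these comparisons, and both probes correlated with r = 0.93 over the 16 arrays. With ordinary in place of moderated variances, in a fit of only residual and relapsed tumors, the adjusted p of the fall was 0.0743.

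Irf7, which drives transcription of the type I interferon genes, had a larger spread. Its ratio was 0.51 to 1.56 with a median of 1.11 in untreated tumors and 1.28 to 2.73 with a median of 2.32 in residual tumors. The relapsed tumors gave -0.56, 1.74, 0.50 and 1.08. The 3 groups overlapped, since relapsed replicate 2 was above the lowest residual tumor. The residual tumors differed from the untreated ones by 1.17 (SE 0.33, adjusted p = 0.250), and the relapsed from the residual ones by -1.55 (SE 0.37, adjusted p = 0.128). Without relapsed replicate 2 the latter difference was -1.90 and passed (adjusted p = 0.0413).

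Stat2 and Irf9, both subunits of the complex that binds the ISRE, gave smaller differences in the same order. Stat2 had a low of 0.26, a median of 0.70 and a high of 1.30 in untreated tumors, and 0.79, 1.58 and 2.23 in residual tumors. In relapsed tumors it stood at -0.18, 0.88, 0.21 and 0.28. Only relapsed replicate 2 reached the range of the residual tumors. The difference was 0.83 (SE 0.25, adjusted p = 0.299) for residual against untreated tumors and -1.25 (SE 0.28, adjusted p = 0.107) for relapsed against residual tumors. Irf9 was 1.04 to 1.76 in untreated tumors, 1.52 to 2.34 in residual tumors, and 0.55, 1.43, 1.23 and 1.28 in relapsed tumors. For this gene relapsed and residual tumors did not overlap, and they differed by -0.85 (SE 0.18, adjusted p = 0.0727). Without residual replicate 5 both genes passed in that comparison, Stat2 at -1.4 (adjusted p = 0.0427) and Irf9 at -0.94 (adjusted p = 0.0354).

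Socs1 was 0.055 to 1.66 in untreated tumors, with a median of 1.37, and 1.42 to 2.54 in residual tumors, with a median of 2.09. In relapsed tumors it was -0.062, 1.21, 1.2 and 0.77, all below the lowest residual tumor. The differences were 0.98 (SE 0.30, adjusted p = 0.298) and -1.27 (SE 0.34, adjusted p = 0.215). By their main probes, 5 of 9 members (Irf1, Irf8, Irf9, Jak2 and Socs1) had every relapsed tumor below every residual tumor, against 0.987% of all genes, and 1 of 9 (Irf1) had every residual tumor above every untreated one, against 0.573%.

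Irf8 did not follow this pattern between untreated and residual tumors. It had a low of -0.65, a median of 0.047 and a high of 1.5 in untreated tumors, where the values of replicates 1 and 2 (1.5 and 1.49) stood above the other 4, and 6 residual tumors lay between -0.054 and 0.72. The relapsed tumors were at -1.04, -0.71, -0.32 and -1.21, below all residual tumors. The difference between relapsed and residual tumors was -1.10 (SE 0.40, adjusted p = 0.466) and that between residual and untreated tumors was -0.035 (95% interval -0.78 to 0.71). The second Irf8 probe did not separate these groups. It lay between -0.65 and -0.24 in relapsed and between -0.39 and -0.16 in residual tumors, which overlapped, with a difference of -0.18 (SE 0.16, adjusted p = 0.865 over all probes), and it was well above background in 2 of 4 relapsed and 3 of 6 residual tumors. The mean of the 12 macrophage markers was 1.67 and 2.01 in untreated replicates 1 and 2, 1.47 in replicate 3 and -0.33 to -0.12 in the other untreated tumors, and -0.57 to 1.09 in residual and -0.64 to 0.57 in relapsed tumors. With this mean as a covariate, Irf8 was lower in relapsed than in residual tumors by 0.95 on the log2 scale and passed (adjusted p = 0.0212), and Socs1 and Irf1 passed for residual against untreated tumors at 1.29 (adjusted p = 0.0182) and 0.96 (adjusted p = 0.0495). Irf9 then also passed for relapsed against residual tumors, at -0.82 (adjusted p = 0.0487). The number of all genes called rose with the covariate as well, from 57 to 356 for residual against untreated tumors and from 78 to 112 for relapsed against residual tumors.

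Among the kinases and the receptor, Jak2 was the one member with no overlap between relapsed and residual tumors. It lay between -0.77 and -0.19 in residual tumors, between -1.01 and -0.50 in untreated tumors, and at -1.34, -0.99, -0.92 and -0.90 in relapsed tumors, a difference of -0.45 from residual tumors (SE 0.12, adjusted p = 0.239). The second Jak2 probe overlapped between these groups and differed by -0.15 (SE 0.10, adjusted p = 0.818 over all probes). It was well above background on no array of this experiment. Jak1 was -1.05 to 0.12 in residual and -0.60 to 0.33 in untreated tumors, and the 95% interval of their difference was -0.46 to 0.38. Ifngr1 was 0.67 to 1.55 in residual and 0.61 to 1.56 in untreated tumors, with an interval of -0.31 to 0.42. For these 2 genes a difference beyond those bounds was outside the interval, and a smaller one remained possible. The intervals are not adjusted for the number of genes and give no limit of detection.

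Of the 5 slides of this experiment 3 held 2 groups each, and the differences were also read within those, whereas 4 of the 6 untreated and 3 of the 6 residual tumors lay on slides of a single group. On the slide that held 2 residual tumors and 1 untreated tumor, the difference was 1.24 for Irf1, 1.61 for Irf7, 1.71 for Stat2, 0.68 for Irf9 and 0.84 for Socs1, in the direction of the whole experiment. For Jak1 (0.69), Jak2 (-0.042) and Ifngr1 (-0.18) the sign was opposite to that of the whole experiment, where these genes differed by at most 0.11 in size, and for Irf8 the difference was -0.95 against -0.035. On the slide that held 2 relapsed tumors and 1 residual tumor, it was -1.88 for Irf1, -2.14 for Irf7, -1.29 for Stat2, -1.12 for Irf9, -0.85 for Socs1, -0.89 for Irf8, -0.44 for Jak2, -0.48 for Jak1 and -0.34 for Ifngr1, all lower as in the whole experiment. With slide as a fixed block the fall of Irf1 was 1.94 on the log2 scale (SE 0.31, adjusted p = 0.0411). Over all genes, 34 in place of 78 were then called for relapsed against residual tumors. For residual against untreated tumors it was 1 in place of 57. Counts of other pathway genes given below come from the fit without slide.

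Other genes of the pathway were counted from lists by role. Of 26 measured interferon target genes, 6 rose and 0 fell from untreated to residual tumors, among them Gbp4 (1.98, SE 0.31), a guanylate-binding protein, and Iigp1 (1.81, SE 0.31), an immunity-related GTPase. The median change of this list was 0.88, against -0.0036 over all genes. From residual to relapsed tumors 10 of 26 fell and 0 rose, with a median of -1.52 against 0.015 over all genes. The largest falls were those of the chemokine Cxcl9 (-2.84, SE 0.46), Iigp1 (-2.80, SE 0.35), Igtp (-2.60, SE 0.42) and Ifi47 (-2.32, SE 0.29). Between relapsed and untreated tumors 0 of 26 passed, with 7 lower at an unadjusted p below 0.05 and a median of -0.58. The 12 measured interferon ligands, 5 other receptor subunits, Jak3 and Tyk2, 5 other Stat factors, 5 other Irf factors and 16 other negative regulators had 0 genes called in any of the 3 comparisons, and at most 3 genes of a list were past an unadjusted p of 0.05 in 1 direction. For 5 of the 12 ligands no untreated or residual tumor was well above background. None of the lists of macrophage, dendritic cell, T and NK cell, B cell, neutrophil, endothelium, fibroblast, lung epithelium or mammary epithelium markers had a gene called in these 3 comparisons. At an unadjusted p below 0.05, 5 of 12 T and NK cell markers were lower in relapsed than in residual tumors (2 of 12 higher in the mean, median -0.16), against 3.28% of all genes, and 2 of 12 exceeded their untreated level in residual tumors (11 of 12 higher in the mean, median 0.16), against 5.06%. In no other list were more than 2 markers past it in 1 direction. The covariate given above adjusts for macrophage markers alone and is no test of cell composition. The part of other cell types in the results of this experiment was not tested.

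Members also varied together from tumor to tumor. Over the 16 arrays, the closest pair was Irf7 and Irf9 with r = 0.94, and it remained close after group means were removed (r = 0.86). Stat2 with Irf9 gave r = 0.90 (0.76 within groups), and Irf1 with Irf9 gave 0.86 (0.59 within groups). Irf8 with Irf7 gave 0.28 (-0.021 within groups), and Irf8 was closest to Socs1 (0.67, and 0.74 within groups). Points in these correlations share group, slide and reference RNA, and they are given as descriptions. Among 11854 genes well above background on at least 80% of these arrays, the 3 genes most like Irf1 were Ifi47 (r = 0.97), Irgm2 (0.96) and Iigp1 (0.95). Those most like Irf9 were Uba7 (0.97), Adar (0.95) and Ifi44 (0.94), and those most like Irf7 were Fbxo39 (0.96), Phf11d (0.94) and Ube2l6 (0.94). For Stat2 they were Trafd1 (0.94), Uba7 (0.93) and Fos (0.92), and for Socs1 Ifit2 (0.91), Tapbp (0.91) and Slc2a6 (0.89). For Irf8 they were the leukocyte genes Ptprc (0.96), Sla (0.96) and Cd40 (0.95). Jak1 (at most 0.88, Garnl3) and Jak2 (at most 0.89, Ltbp2) had less close neighbors.

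The second question was how the same genes differed between adenoma, carcinoma, disseminated cells and metastases. By their main probes, Irf1 and Irf7 had means in metastases above those of all other groups past the test. The rise of Irf1 was absent from its second probe, which was lower in metastases than in adenoma (-1.28, limma adjusted p = 0.00532 over all probes). Ifngr1, Jak1, Jak2 and Irf8 had their highest means in disseminated cells, and Stat2 had its lowest mean in carcinoma, also by main probes. Of the neighbors in the order of means, the test separated metastases from adenoma for Irf1, metastases from carcinoma for Irf7, disseminated cells from adenoma for Ifngr1 and Jak1, carcinoma from metastases for Jak1, and disseminated cells from carcinoma for Stat2, and no others. The number of members that passed an adjusted p below 0.05 was 1 of 9 for carcinoma against adenoma (11.7% of all genes), 3 of 9 for metastases against adenoma (28.5%), 5 of 9 for metastases against carcinoma (22%), 4 of 9 for metastases against disseminated cells (13%), 5 of 9 for disseminated cells against carcinoma (26.5%) and 3 of 9 for disseminated cells against adenoma (20.6%). Shares of the members near those of all genes, as for carcinoma or metastases against adenoma, are no result about the members. Every array of the first group lay beyond every array of the second for 1 of 9 members in carcinoma against adenoma (10.5% of all genes), 2 of 9 in metastases against adenoma (21.4%), 3 of 9 in metastases against carcinoma (13.5%), 2 of 9 in metastases against disseminated cells (4.19%), 1 of 9 in disseminated cells against carcinoma (7.15%) and 1 of 9 in disseminated cells against adenoma (9.36%). Carcinomas and metastases were on slides of 1 scan day and adenomas and disseminated cells on slides of another, so slide and group cannot be told apart in 4 of the 6 comparisons. Slides were shared by metastases with carcinomas, and by adenomas with disseminated cells.

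**Figure D2:**
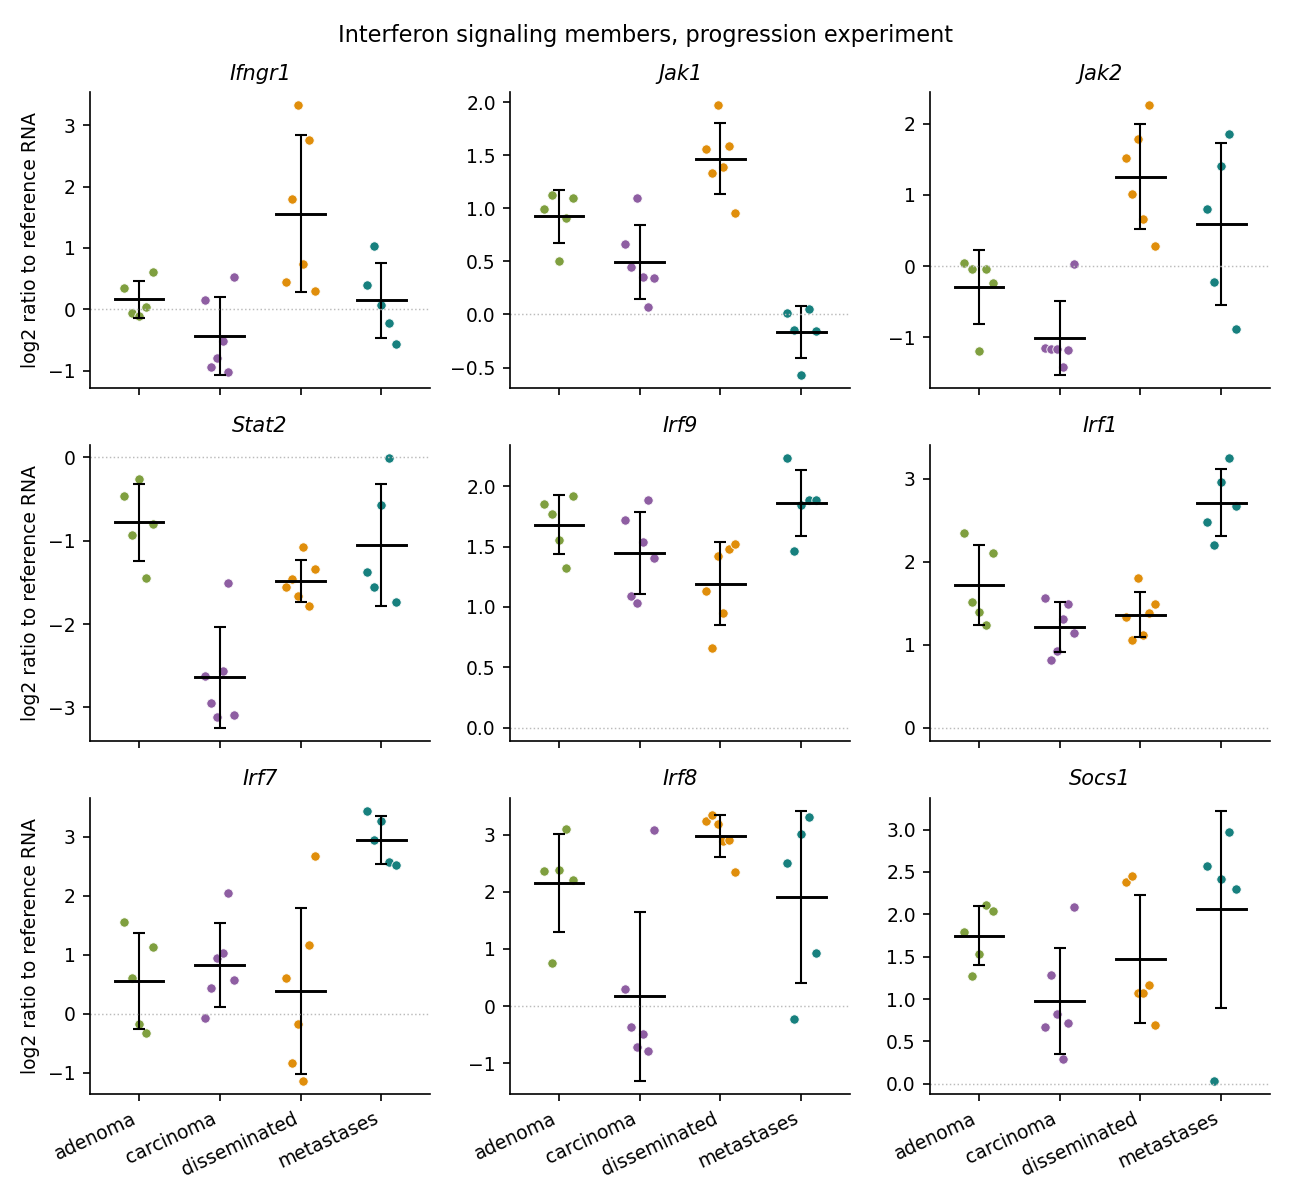
Log2 ratio to reference RNA of each member (vertical axis) in adenoma, carcinoma, disseminated cells and metastases (horizontal axis). Each point is 1 array, the horizontal line is the group mean and the bar is 1 SD. Irf7 lies between 2.52 and 3.43 in the 5 metastases, and Irf8 of 1 carcinoma (3.09) stands apart from the other 5 (-0.79 to 0.30).

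Irf7 showed the largest rise in metastases. It stood at 3.43, 2.93, 3.27, 2.57 and 2.52 in metastases, and at 1.55, 0.60, -0.18, -0.33 and 1.13 in adenomas. In carcinomas it had a low of -0.069, a median of 0.75 and a high of 2.04, and in disseminated cells a low of -1.13, a median of 0.21 and a high of 2.66. All metastases were above all adenomas and carcinomas, and 1 sample of disseminated cells reached into their range. The rise was 2.12 against carcinoma (SE 0.54, 4.34-fold, adjusted p = 0.00889), 2.39 against adenoma (SE 0.57, adjusted p = 0.00381) and 2.56 against disseminated cells (SE 0.54, adjusted p = 0.00418). Within the 3 slides that held both metastases and carcinomas, the difference was 2.16, 2.56 and 1.63. Adenoma, carcinoma and disseminated cells did not differ beyond their spread (adjusted p of 0.570 to 0.858).

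Irf1 was 2.48, 2.20, 2.96, 3.24 and 2.67 in metastases and 2.34, 1.52, 1.39, 1.24 and 2.10 in adenomas by its brighter probe. Carcinomas had a low of 0.82, a median of 1.23 and a high of 1.57, and disseminated cells a low of 1.05, a median of 1.36 and a high of 1.80. Metastases lay above all carcinomas and disseminated cells and overlapped with adenomas in 1 value. The rise was 1.5 against carcinoma (SE 0.21, 2.83-fold, adjusted p = 0.000178), 1.35 against disseminated cells (SE 0.21, adjusted p = 0.000612) and 0.99 against adenoma (SE 0.22, adjusted p = 0.00265).

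The second Irf1 probe did not show this rise. Its change was -0.19 for metastases against carcinoma (SE 0.30, adjusted p = 0.74 over all probes), -0.097 against disseminated cells (adjusted p = 0.884) and -1.28 against adenoma (SE 0.32, adjusted p = 0.00532). It was -1.54 to -1.26 in metastases, and -0.69 to -0.53 in 4 adenomas with 1.65 in the other. Against adenoma it was also lower in carcinoma (-1.09, SE 0.30, adjusted p = 0.0252) and in disseminated cells (-1.18, SE 0.30, adjusted p = 0.0113). The brighter probe was called in neither (-0.51, adjusted p = 0.127, and -0.36, adjusted p = 0.252). The probes correlated with r = -0.13 over the 22 progression arrays. On chromosome 11 (build mm7, + strand), the brighter probe covers 53733970 to 53734029 and the dimmer one spans 53730701 to 53730846, nearer to the start of the gene. Thus the rise of Irf1 in metastases rests on the brighter probe, and with the mean of both probes the change against adenoma was -0.15 (adjusted p = 0.596) and that against carcinoma 0.66 (adjusted p = 0.0113).

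**Figure D3:**
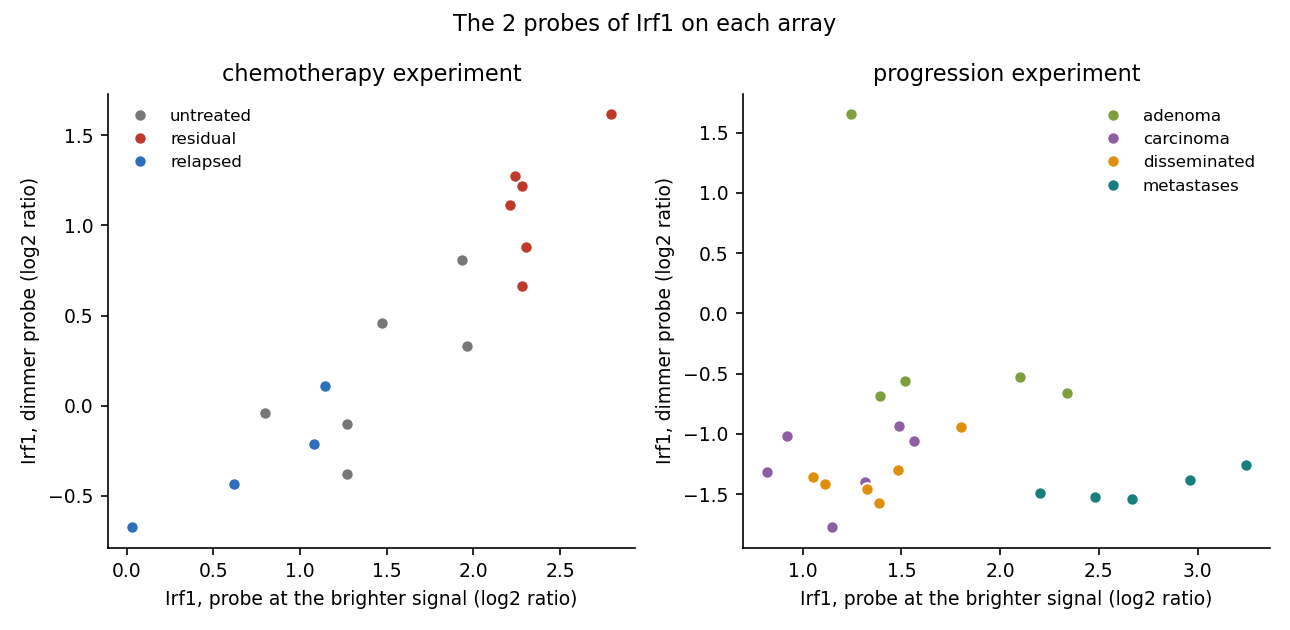
Log2 ratio of the dimmer Irf1 probe (vertical axis) against that of the brighter one (horizontal axis), 1 point for each array, colored by group, for the chemotherapy experiment (left, r = 0.93) and the progression experiment (right, r = -0.13). The 5 metastases have the highest values of the brighter probe as a group and values of -1.54 to -1.26 on the dimmer one.

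Irf9 was 2.23, 1.47, 1.85, 1.89 and 1.88 in metastases, and 0.66 to 1.52 with a median of 1.28 in disseminated cells. The groups overlapped in a single metastasis sample, and the rise was 0.67 (SE 0.18, 1.59-fold, adjusted p = 0.0194). Without disseminated replicate 2 it was 0.56 (adjusted p = 0.0513), and without metastases replicate 1 it was 0.58 (adjusted p = 0.0613). Among 16 alternatives that kept all samples it passed in 11, with an adjusted p of up to 0.103. The second Irf9 probe, which was dim, changed by 0.15 (adjusted p = 0.610 over all probes). The means of adenomas (1.32 to 1.92) and carcinomas (1.03 to 1.88) lay between those of these groups.

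Jak1 ran the other way. It was 0.015, -0.14, -0.57, 0.048 and -0.16 in metastases, 0.99, 1.13, 0.50, 0.91 and 1.09 in adenomas, 0.070 to 1.10 with a median of 0.40 in carcinomas, and 0.96 to 1.97 with a median of 1.48 in disseminated cells. Every metastasis sample lay below every sample of the other 3 groups. Jak1 fell in metastases by 1.63 on the log2 scale against disseminated cells (SE 0.18, 3.09-fold, adjusted p = 4.05e-05), by 1.09 against adenoma (SE 0.19, adjusted p = 0.000337) and by 0.66 against carcinoma (SE 0.18, adjusted p = 0.0135). In disseminated cells it rose by 0.97 against carcinoma (SE 0.17, adjusted p = 0.000591) and by 0.54 against adenoma (SE 0.18, adjusted p = 0.0387). The second Jak1 probe changed in the same direction in 4 of these 5 comparisons, by -1.15 (adjusted p = 0.00312 over all probes), -0.67 (adjusted p = 0.0459), 1.79 (adjusted p = 3.65e-05) and 0.49 (adjusted p = 0.152). For carcinoma against adenoma it gave -1.30 (SE 0.23, adjusted p = 0.0017), where the brighter probe gave -0.43 and was not called (adjusted p = 0.127). For metastases against carcinoma the second probe gave 0.64 (SE 0.23, adjusted p = 0.0568), opposite in sign to the brighter probe, and the mean of both was -0.011 (adjusted p = 0.979). With the deposited ratios the fall against carcinoma was 0.45 on the log2 scale (adjusted p = 0.123), and it passed in 12 of 17 alternatives that kept all samples.

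Jak2 rose in disseminated cells and in metastases relative to carcinoma. Carcinomas lay between -1.42 and 0.031 with a median of -1.16, and disseminated cells between 0.28 and 2.25 with a median of 1.27, above all carcinomas. Metastases gave 0.81, -0.22, 1.4, 1.85 and -0.89, and adenomas 0.047, -0.039, -1.19, -0.047 and -0.24. The rise over carcinoma was 2.26 in disseminated cells (SE 0.42, 4.79-fold, adjusted p = 0.000796) and 1.60 in metastases (SE 0.44, 3.02-fold, adjusted p = 0.0133), and disseminated cells were also above adenoma by 1.55 (SE 0.44, adjusted p = 0.0172). The second Jak2 probe, which was dim, passed in none of these (0.58, 0.55 and 0.33, with adjusted p of 0.289, 0.375 and 0.603 over all probes).

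Ifngr1 rose in disseminated cells, with a low of 0.30, a median of 1.27 and a high of 3.32, against -1.02 to 0.53 in carcinomas. Adenomas were at 0.34, -0.053, -0.11, 0.038 and 0.61, and metastases at 0.39, 1.04, 0.075, -0.22 and -0.56. Disseminated replicates 2, 3 and 5 (1.80, 3.32 and 2.76) stood above all other arrays. The rise was 1.99 over carcinoma (SE 0.45, 3.99-fold, adjusted p = 0.00326) and 1.4 over adenoma (SE 0.47, adjusted p = 0.0419). Within the 3 slides that held both disseminated cells and adenomas, the difference was 0.18, 2.76 and 1.38. The rises over adenoma of Ifngr1, Jak1 and Jak2 were all lost when adenoma replicate 3 was left out (adjusted p of 0.0879, 0.116 and 0.0552). Over the 22 arrays left out in turn, Jak2 was called in 21, Jak1 in 16 (adjusted p of up to 0.116) and Ifngr1 in 14 (up to 0.107). Beside adenoma replicate 3, leaving out adenoma replicate 1 or 4 or disseminated replicate 3 or 5 ended the calls of both Ifngr1 and Jak1, disseminated replicate 1 that of Jak1, and adenoma replicate 2, disseminated replicate 2 or metastases replicate 3 that of Ifngr1. Among 17 alternatives that kept all samples, Jak2 passed in 14, Ifngr1 in 13 and Jak1 in 12.

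Irf8, the factor of macrophages and dendritic cells, had its most uniform level in disseminated cells, with a low of 2.34, a median of 3.04 and a high of 3.34. Carcinomas gave -0.79 to 0.30 in 5 samples and 3.09 in replicate 6. Metastases gave 2.5, -0.23, 3.01, 3.31 and 0.93, and adenomas 2.36, 0.75, 2.39, 3.09 and 2.20. Irf8 rose by 2.81 from carcinoma to disseminated cells (SE 0.63, 7-fold, adjusted p = 0.00315). Carcinoma differed from adenoma by -1.99 (SE 0.66, adjusted p = 0.0564), and metastases from carcinoma by 1.73 (SE 0.66, adjusted p = 0.0674). Without carcinoma replicate 6 both passed, at -2.57 (adjusted p = 0.00532) and 2.31 (adjusted p = 0.0036). Without metastases replicate 2 both passed as well, at -1.99 (adjusted p = 0.037) and 2.27 (adjusted p = 0.0187). Leaving out adenoma replicate 2 made the former pass (-2.34, adjusted p = 0.0454), and leaving out metastases replicate 5 the latter (1.97, adjusted p = 0.0496). The second Irf8 probe gave 1.19 for disseminated cells against carcinoma (SE 0.41, adjusted p = 0.0386 over all probes) and -0.041 for carcinoma against adenoma (adjusted p = 0.965). By the main probe, metastases differed from carcinomas by 2.40, 3.11 and -1.38 within the 3 slides with both groups.

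Markers of other cells were called in the same comparisons. Over all genes, 26.5% were called from carcinoma to disseminated cells and 20.6% from adenoma to disseminated cells. Marker counts near the share of all genes called are no result about their list. The mean of the 12 macrophage markers was 2.94 to 4.30 in disseminated cells, -0.34 to 0.33 in 5 carcinomas and 4.31 in replicate 6, and 2.96, 0.69, 3.77, 4.62 and 0.65 in metastases. From carcinoma to disseminated cells 8 of 12 macrophage markers rose, with a median change of 2.93, as did 7 of 9 neutrophil markers (2.52), 8 of 12 T and NK cell markers (1.21), 6 of 8 endothelium markers, 5 of 8 lung epithelium markers, 2 of 6 B cell markers and 1 of 8 dendritic cell markers. In this comparison 4 of 12 mammary epithelium markers fell (median -1.49), as did 1 B cell and 1 dendritic cell marker, and 0 of 7 fibroblast markers passed (1 at an unadjusted p below 0.05). From adenoma to disseminated cells 11 of 12 macrophage (median 3.73), 6 of 9 neutrophil, 6 of 8 endothelium, 5 of 8 lung epithelium, 3 of 12 T and NK cell, 1 of 8 dendritic cell and 1 of 6 B cell markers rose, and 2 of 12 mammary epithelium, 1 of 7 fibroblast and 1 of 12 T and NK cell markers fell. For metastases, 28.5% of all genes were called against adenoma, 22% against carcinoma and 13% against disseminated cells. From adenoma to metastases 9 of 12 macrophage (median 2.29), 4 of 8 endothelium, 4 of 8 lung epithelium and 2 of 9 neutrophil markers rose, and 3 of 7 fibroblast, 2 of 12 T and NK cell and 1 each of the dendritic cell, B cell, neutrophil and mammary epithelium markers fell. From carcinoma to metastases 2 of 12 macrophage, 3 of 8 lung epithelium and 1 of 8 endothelium markers rose, 1 each of the dendritic cell, T and NK cell, B cell and endothelium markers fell, and 0 neutrophil, fibroblast or mammary epithelium markers were called. From disseminated cells to metastases 6 of 9 neutrophil markers (median -2.49), 2 of 12 T and NK cell, 2 of 8 endothelium, 1 of 7 fibroblast and 1 of 8 lung epithelium markers fell, and 1 of 12 mammary epithelium markers rose, with 7 of 12 higher at an unadjusted p below 0.05 (median 1.39). In that comparison 0 macrophage, dendritic cell or B cell markers were called. All 12 macrophage markers were well above background on every array of disseminated cells and metastases. With the macrophage mean as a covariate, the changes from carcinoma to disseminated cells were 0.61 for Irf8 (adjusted p = 0.466), 0.99 for Jak2 (adjusted p = 0.138), 1.73 for Ifngr1 (adjusted p = 0.119) and 0.97 for Stat2 (adjusted p = 0.183), and Jak1 alone passed of the 5 members called (SE 0.24, adjusted p = 0.0222). With the covariate 1166 in place of 7636 of all genes were called in this comparison. The macrophage mean did not overlap between disseminated cells and adenomas or 5 carcinomas. A fit with this covariate therefore cannot tell group and marker level well apart. From carcinoma to metastases, Jak2 (0.79, adjusted p = 0.134) and Jak1 (-0.64, adjusted p = 0.0604) no longer passed with it, where 2748 in place of 6334 genes were called. From adenoma to metastases Irf1 (0.81, adjusted p = 0.0569) no longer passed, where 3614 in place of 8217 genes were called. From adenoma to disseminated cells none of the 3 members called passed with it, with 80 in place of 5921 genes called, and the difference of Jak2 was -0.039. In adenomas, by contrast, Irf8 was 0.75 to 3.09 while the macrophage mean was -0.28 to 0.20 and Cd163 and Itgam were not well above background on any array. The T and NK cell mean was 0.58 to 1.56 there and 0.12 to 0.71 in carcinomas, and 3 of 12 of these markers fell from adenoma to carcinoma, namely Nkg7 (-3.44, SE 0.44), Cd3d (-2.81, SE 0.76) and Cd3g (-1.39, SE 0.39). None of the 12 rose, 4 were lower and 1 was higher at an unadjusted p below 0.05, and the median was -0.25. In the same comparison 2 of 8 endothelium markers rose, 2 of 7 fibroblast markers fell, and no marker of the other lists was called. Of all genes, 11.7% were called there. The part of these cells in the results for the members was not tested.

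**Figure D4:**
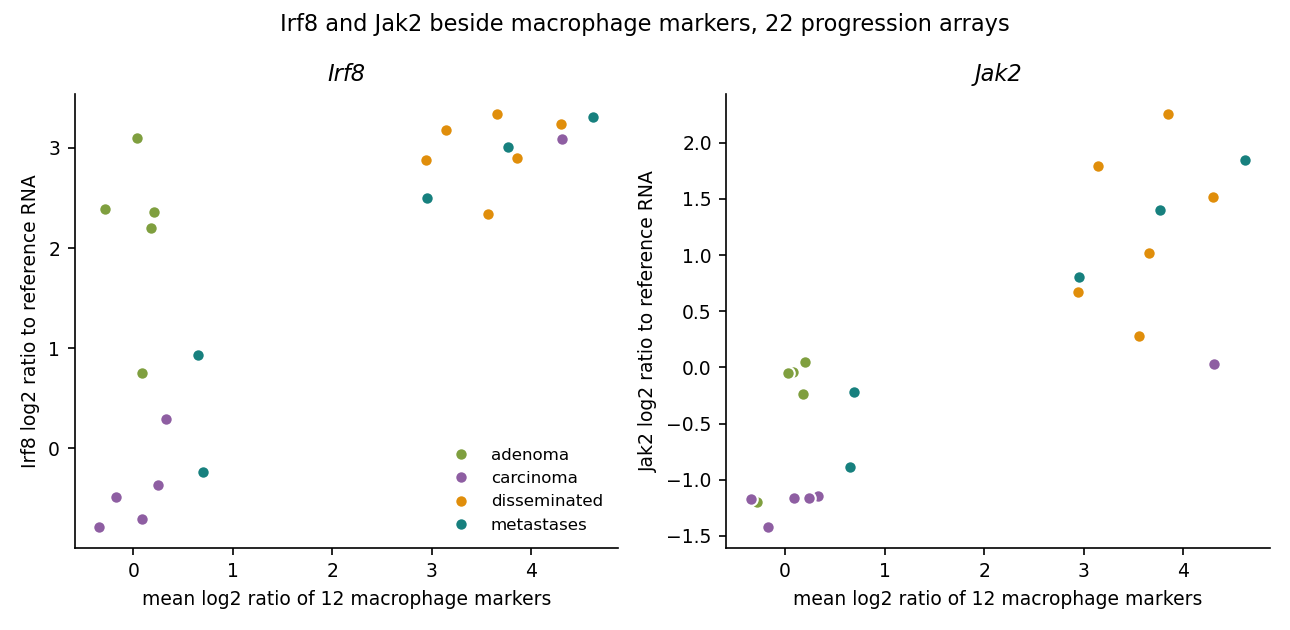
Log2 ratio of Irf8 (left) and Jak2 (right) on the vertical axis against the mean log2 ratio of 12 macrophage markers on the horizontal axis, for the 22 progression arrays colored by group. Carcinoma replicate 6 (4.31) lies just above the disseminated cells (2.94 to 4.30) on the horizontal axis, and the 5 adenomas combine marker means of -0.28 to 0.20 with Irf8 of 0.75 to 3.09.

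Stat2 was lowest in carcinoma. It had a low of -3.12, a median of -2.79 and a high of -1.5 there, and was -0.46, -0.93, -0.26, -1.45 and -0.80 in adenomas, -1.38, -1.56, -0.57, -0.013 and -1.74 in metastases and -1.78 to -1.08 in disseminated cells. Every carcinoma was below every adenoma, and carcinoma replicate 5 (-1.5) was the one that reached the other 2 groups. Stat2 fell by 1.86 on the log2 scale from adenoma to carcinoma (SE 0.31, 3.63-fold, adjusted p = 0.00113), and rose from carcinoma by 1.59 in metastases (SE 0.31, adjusted p = 0.00166) and by 1.16 in disseminated cells (SE 0.30, adjusted p = 0.00705). Within the 3 slides with both groups, metastases differed from carcinomas by 1.60, 2.17 and 0.74. Metastases and adenoma did not differ beyond their spread (-0.27, 95% interval -0.95 to 0.40).

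Socs1 passed in none of the 6 comparisons. It was 2.57, 0.036, 2.42, 2.97 and 2.30 in metastases, 1.79, 1.27, 1.53, 2.11 and 2.03 in adenomas, 0.30 to 2.09 with a median of 0.77 in carcinomas, and 0.69 to 2.46 with a median of 1.12 in disseminated cells. The low value of metastases replicate 2 and the high one of carcinoma replicate 6 each bore on metastases against carcinoma, which was 1.08 (SE 0.45, adjusted p = 0.09) with all arrays, 1.59 without the former (adjusted p = 0.00592) and 1.30 without the latter (adjusted p = 0.0349). In the same 2 samples, the macrophage mean was 0.69 and 4.31. Metastases replicate 5 did not share this pairing, with a Socs1 of 2.30 at a macrophage mean of 0.65, and neither did other groups. Adenomas had the above Socs1 values at macrophage means of -0.28 to 0.20, and disseminated cells theirs at means of 2.94 to 4.30. A link of Socs1 with these markers was not tested. Within the 3 slides with both groups, Socs1 of metastases differed from that of carcinomas by 1.57, 2.03 and -1.36.

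**Figure D5:**
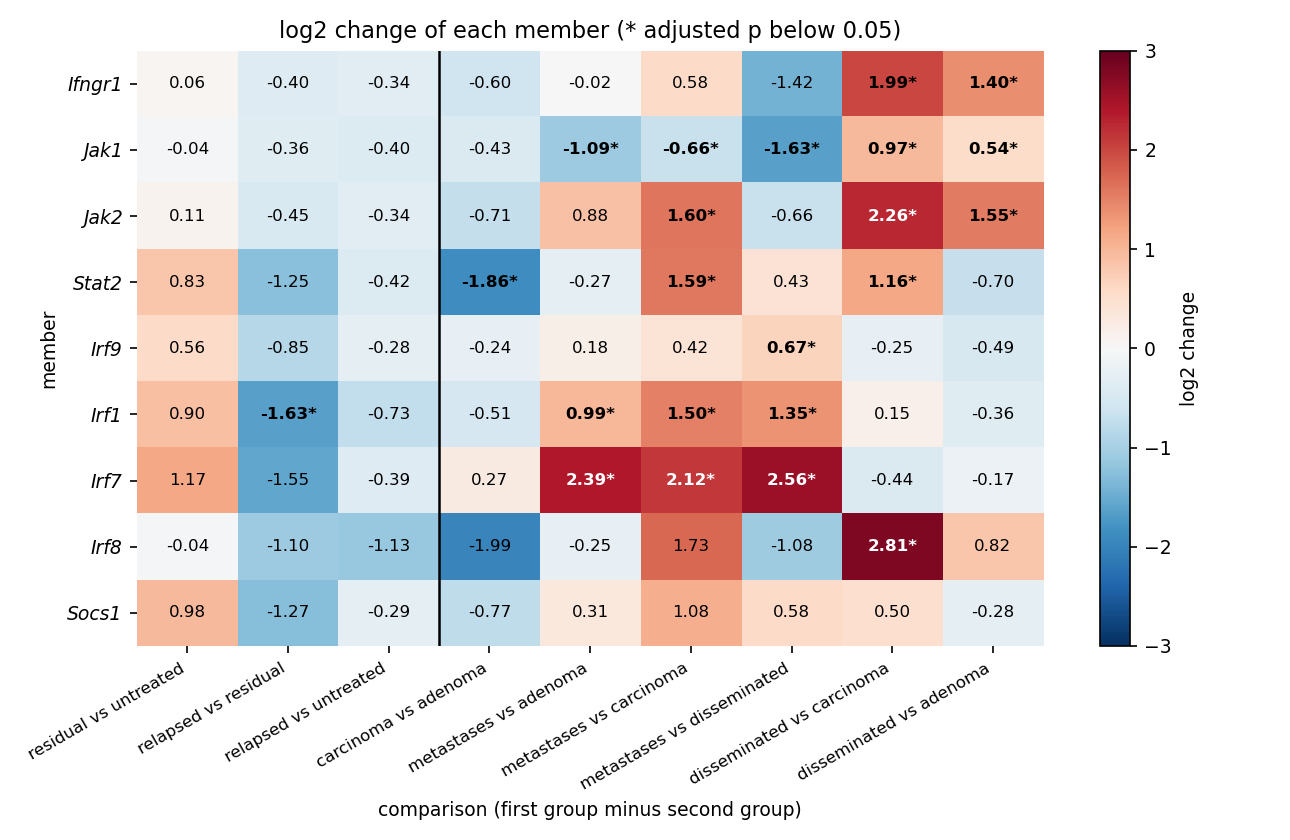
Log2 change of each member (rows) in the 9 comparisons (columns, first group minus second), with red for higher and blue for lower in the first group and an asterisk where the adjusted p is below 0.05. The line separates the chemotherapy comparisons, with 1 call (Irf1, -1.63), from the progression comparisons.

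The other lists of the pathway were read in the same 6 comparisons, in which between 11.7 and 28.5% of all genes were called. Of 26 interferon target genes, 12 fell and 0 rose from adenoma to carcinoma, with a median of -1.56 against 0.066 over all genes, led by Cxcl9 (-4.25, SE 0.63), Iigp1 (-3.22, SE 0.56), Gbp4 (-2.99, SE 0.45) and Irgm1 (-2.79, SE 0.39). In the same comparison the ligand Ifng fell by 3.54 on the log2 scale (SE 0.74, adjusted p = 0.00521), the one interferon ligand of 12 called there. From carcinoma to metastases 11 target genes rose and 0 fell (median 1.17, against -0.048 over all genes), among them Ifit2 (3.66, SE 0.76), Rsad2 (3.18, SE 0.79), Gbp3 (2.69, SE 0.48) and Tap1 (2.64, SE 0.55). From disseminated cells to metastases 7 rose and 0 fell (median 0.72, against 0.0085), with Isg15 at 2.28 (SE 0.55). From carcinoma to disseminated cells 5 rose and 0 fell (median 0.68, against -0.068), and from adenoma to disseminated cells 1 rose (Cd274, 2.70, SE 0.72) and 13 fell (median -1.16, against -0.0092). From adenoma to metastases 2 rose and 7 fell (median -0.52, against 0.016), Rsad2 (3.58, SE 0.83) being among the former and Cxcl9 (-2.74, SE 0.66) among the latter.

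Some other receptor subunits also rose in disseminated cells, where 26.5% of all genes were called against carcinoma and 20.6% against adenoma. Of 5 measured, Ifnar1 (1.68, SE 0.32), Il10rb (1.32, SE 0.47) and Ifngr2 (0.91, SE 0.19) rose from carcinoma, and the same 3 rose from adenoma (1.56, 2.36 and 1.04). In metastases Il10rb (1.41, SE 0.50) and Ifngr2 (1.08, SE 0.20) rose from carcinoma and Ifnlr1, the interferon lambda receptor, fell by 1.35 on the log2 scale (SE 0.47). Of the 5 other Irf factors, Irf5, which is known from myeloid cells, rose by 3.59 from carcinoma to disseminated cells (SE 0.68), and Irf4 by 2.69 (SE 0.72). Irf3 fell by 0.55 on the log2 scale (SE 0.18). Of the 5 other Stat factors, Stat4 (2.05, SE 0.58) and Stat6 (1.17, SE 0.27) rose there, and of Jak3 and Tyk2 only Tyk2 did (0.58, SE 0.16). Of 16 other negative regulators, 4 rose and 0 fell from carcinoma to disseminated cells, a share near the 26.5% of all genes called there, with Ptpn6 (2.49, SE 0.49), a phosphatase of blood cells, as the largest rise. From carcinoma to metastases 6 rose and 0 fell, where 22% of all genes were called, among them Socs6 (1.97, SE 0.39), Socs4 (1.91, SE 0.40), Socs3 (1.79, SE 0.59) and Socs5 (1.41, SE 0.44). From adenoma to carcinoma 0 of the receptor, Jak, Stat and Irf genes of these lists were called, and of the negative regulators only Pias3 fell (-0.79, SE 0.21).

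The members varied together less closely across the 22 progression arrays. The highest correlation was that of Irf8 and Jak2 with r = 0.78 (0.65 within groups), followed by Irf1 and Irf9 with 0.74 (0.69 within groups) and Irf1 and Irf7 with 0.72 (0.37 within groups). Irf7 and Jak1 gave -0.68 over all arrays and -0.24 within groups. Irf7 and Irf9, the closest pair of the chemotherapy experiment, gave 0.68 (0.60 within groups). Among 14411 genes, those most like Irf9 were Usp18 (0.85), Trim21 (0.80) and Dhx58 (0.79), and those most like Irf1 were Parp14 (0.88), Tapbp (0.85) and Tyw5 (0.85). Irf8 was most like Gpr183 (0.93), H2-Eb1 (0.93) and Serpina3g (0.93), and Jak2 most like Dram1 (0.96), Dock4 (0.95) and Lrrc8c (0.95). For Irf7 the closest were Marchf5 (0.94), Srp54a (0.93) and Ywhaq (0.93), for Stat2 Daxx (0.90), Wdr75 (0.82) and Dnttip2 (0.80), and for Socs1 H2-DMb1 (0.84), Tnfrsf9 (0.78) and H2-DMa (0.77).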

How the data were processed

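GFP-positive cells were sorted, and their RNA, labeled with Cy5, was compared on Agilent whole mouse genome arrays with a reference RNA that carried Cy3. The authors deposited, for each of 38 arrays, the scanner text file of Feature Extraction 10.7 with mean signal and local background intensities per spot and channel. A table of log2 values (Cy5 over Cy3, normalized within arrays by the authors) served as an alternative. It correlated with the recomputed ratios at r = 0.969 to 0.999.

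Mean signals were corrected with normexp (offset 50), normalized by loess within arrays and by quantiles between the arrays of an experiment in limma 3.58.1 (R 4.3.3), after the study's methods. Control spots (1639 of 45018) had no weight in loess and were then left out. Spots of a probe were averaged, and a gene was represented by its probe of highest mean signal. Of 41174 probes, 22951 were named by accession through a RefSeq table and 18223 by the array's own name. Linear models with all groups of an experiment were fitted to 28786 gene names, p-values were moderated with eBayes and adjusted by the Benjamini-Hochberg procedure, and genes with an adjusted p below 0.05 were called. Probe tests were adjusted over all probes. The number of arrays limits the precision, and dye effects could not be removed without dye swaps.

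All members and every probe of each were named. Other genes were named where they were called and among the largest changes of their list, where markers stood beside a member, or as the 3 genes of highest correlation with a member. Members and lists were chosen with earlier results of these data known. Not every gene of the pathway is reported here. Groups came from the labels. The fits were tested on simulated data. Alternatives changed the background correction, signals, normalization, probe choice, filter, test, samples and covariates, and leaving out spots flagged as outliers was added after the data had been seen.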

Additional observations from a re-analysis of the deposited data

Results flagged for a closer look

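Among 63 sets of 1 member in 1 group, 7 held an array whose gap to its nearest neighbor exceeded Dixon's 95% value, and chance gives about 1 in 20. In residual tumors, Irf1 was 2.79 in replicate 2 and at most 2.30 in the others. In relapsed tumors, Ifngr1 was 0.25 in replicate 2 and at least 0.77 in the others. In metastases, Socs1 was 0.036 in replicate 2 and at least 2.30 in the others. In adenomas, Jak2 was -1.19 in replicate 3 and at least -0.24 in the others. Carcinoma replicate 6 had an Irf8 of 3.09, against at most 0.30 in the others, and a Jak2 of 0.031, against at most -1.15, and it is the carcinoma with a macrophage marker mean of 4.31. Carcinoma replicate 5 had a Stat2 of -1.5, against at most -2.56 in the others. All values are log2 ratios, and the cause of these gaps was not tested.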

How the results depend on the processing

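Of 1422 values of single members under alternatives that kept all samples, 1353 kept their side of the threshold, with their direction where called and otherwise within the spread between replicates. Another 34 lost the call, 23 gained one, 10 moved by more than the spread without a call and 2 reversed. The sign changed in 14 of the 1353 and 4 of the 10, all of them uncalled values. Both reversals were of values called in the main fit, and neither was called after the reversal. They were Irf1 in metastases against adenoma with the mean of its probes (-0.15) and Jak2 in disseminated cells against adenoma with the macrophage covariate (-0.039). The number of members called was 1 for relapsed against residual tumors. It became 2 with dim probes left out, with the mean of probes and with only the groups compared. It became 3 with the macrophage covariate and 0 with ordinary variances, which were fitted to only the groups compared. For carcinoma against adenoma it was 1 and became 2 with dim probes left out, 3 with the mean of probes (Irf1 and Jak1 added) and 3 with the macrophage covariate (Irf8 and Jak2 added). The macrophage covariate also gave 2 in place of 0 for residual against untreated tumors, 3 in place of 5 for metastases against carcinoma, 1 in place of 5 for disseminated cells against carcinoma and 0 in place of 3 for disseminated cells against adenoma. The last 3 went with fewer calls over all genes (2748 in place of 6334, 1166 in place of 7636 and 80 in place of 5921). Ordinary variances, again with only the groups compared, gave 2 in place of 4 for metastases against disseminated cells. They gave 1 in place of 3 for disseminated cells against adenoma. For the former, calls over all genes fell from 3754 to 1088 with only the groups compared, and to 282 with ordinary variances as well. For the latter, they fell from 5921 to 4093 and 2913. The causes were not tested.

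With the replicate number as a block, relapsed against residual tumors had 2 calls (Stat2 added at -1.35, adjusted p = 0.0324) and carcinoma against adenoma 2 (Irf8 added at -2.21, adjusted p = 0.0363). In disseminated cells against adenoma Jak2 (adjusted p = 0.0501) and Ifngr1 (adjusted p = 0.0826) then missed the threshold and Irf9 passed, and in metastases against carcinoma Irf8 and Irf9 were added. Same-numbered samples deviated with correlations of -0.41 to 0.42 over 14 pairs in the chemotherapy experiment and -0.41 to 0.32 over 31 pairs in the progression experiment. Differently numbered pairs were not set beside them, so these values cannot decide whether same-numbered samples share more than a number. The labels state no pairing.

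Leaving out 1 array at a time gave 0 calls throughout for residual or relapsed against untreated tumors, 1 to 3 for relapsed against residual tumors, 1 to 2 for carcinoma against adenoma, 3 to 4 for metastases against adenoma, 5 to 7 for metastases against carcinoma, 3 to 5 for metastases against disseminated cells, 5 for disseminated cells against carcinoma and 0 to 4 for disseminated cells against adenoma. The 0 came without adenoma replicate 3, and the 3 for relapsed against residual tumors without residual replicate 5. Dim second probes of Irf9 and Jak2 limit what can be read from them.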
